A study of Mus musculus with 4 samples.

Results

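Chemokine ligands are small secreted proteins that steer cell migration, and 10 of their genes were followed here in cultured hair follicle mesenchyme. The genes were Cxcl1, Cxcl5, Cxcl10, Cxcl12, Cxcl14, Cxcl16, Cx3cl1, Ccl2, Ccl5 and Ccl7, chosen by symbol from the 51826 genes of the deposited count table. Dermal papilla cells (DPCs), the mesenchyme inside the hair bulb, and dermal sheath cells (DSCs), the layer wrapped around the follicle, came from whisker (vibrissa) follicles of C57BL/6J mice that carried an EGFP transgene, were 5 to 6 weeks old and are labelled WT. The cells were cultured in DMEM, and each type was sequenced as 1 library at passage 3, the low passage, and 1 at passage 9, the high passage. There were no replicate cultures, so none of the differences below was tested, and any difference between cell types or passages cannot be told apart from a difference between single cultures or library preparations.

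Chemokines are grouped by the spacing of the cysteines near their N terminus into CC, CXC and CX3C families, and they act on G protein-coupled receptors of the target cell. Some, such as the neutrophil attractants, are switched on by inflammatory signals, while others, such as CXCL12, are made constantly by stromal cells and hold receptor-bearing cells in place. In skin, fibroblasts and follicle mesenchyme are known sources of ligands that draw leukocytes and guide resident cells. The study asked how such cells find their way back to hair follicles, and the libraries show which of these ligands were transcribed in the cultures.

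Of the 9 ligands that could be called, 4 were called at 4-fold between the cell types at both passages, a papilla-high pair and a sheath-high pair. Of all tested genes, 0.502% were called higher in DPCs at both passages and 1.00% higher in DSCs. Ccl2 and Ccl7, which attract monocytes through CCR2, were at least 4-fold higher in DPCs than in DSCs at each passage. Cxcl12, the ligand of CXCR4, and Cxcl14, a ligand that resting skin makes constantly, were at least 4-fold higher in DSCs at each passage. No ligand was called between passage 3 and passage 9 in either cell type. Of all tested genes, 5.58% were called higher and 4.36% lower at passage 9 in DPCs, and 2.67% and 1.16% in DSCs. At these shares, 0 of 9 is no result about the ligands. Counts were scaled by the TMM method, which sets libraries to a common level on the bulk of the genes, and a gene was called at an absolute log2 fold change of 2 (4-fold) in log2 CPM, counts scaled to a common library size, and with a prior count of 2. Calls were made on the 16734 genes with a mean count of at least 10. Cxcl5 missed this minimum with a mean count of 8.25, so 9 of the 10 ligands could be called.

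Promoter sequences are shown for the sheath-high Cxcl12 and Cxcl14 and for Cxcl1 and Cxcl10, inflammatory ligands that were low in every library, because NF-kB, interferon and AP-1 sites are known to drive inflammatory ligands. Each is the 250 bases before the RefSeq transcription start on GRCm38.p6, written on the strand of the gene. Capitals mark matches, on either strand, to 3 motifs: GGG and CC with any 5 bases between them, a loose form of the NF-kB site, TTTC and TTTC with any 2 bases between them, a loose interferon response element, and TGANTCA, the AP-1 site.
Cxcl12, chr6:117168285-117168534, plus strand: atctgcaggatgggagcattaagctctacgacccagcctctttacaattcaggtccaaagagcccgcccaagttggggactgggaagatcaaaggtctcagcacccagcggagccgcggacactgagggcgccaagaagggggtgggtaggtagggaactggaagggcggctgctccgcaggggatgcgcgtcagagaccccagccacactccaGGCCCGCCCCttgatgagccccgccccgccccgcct
Cxcl14, chr13:56296552-56296801, minus strand: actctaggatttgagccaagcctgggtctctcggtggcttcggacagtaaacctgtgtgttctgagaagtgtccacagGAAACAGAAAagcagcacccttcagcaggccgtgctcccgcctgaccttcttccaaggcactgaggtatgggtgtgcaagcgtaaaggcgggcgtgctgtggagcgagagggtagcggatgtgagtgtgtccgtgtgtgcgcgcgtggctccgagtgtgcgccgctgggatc
Cxcl10, chr5:92348890-92349139, minus strand: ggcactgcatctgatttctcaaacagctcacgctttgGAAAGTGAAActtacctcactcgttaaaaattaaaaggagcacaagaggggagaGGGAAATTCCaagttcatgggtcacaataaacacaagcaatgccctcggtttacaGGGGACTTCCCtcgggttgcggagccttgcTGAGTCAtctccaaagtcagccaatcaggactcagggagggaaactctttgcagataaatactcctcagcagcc
Cxcl1, chr5:90890995-90891244, plus strand: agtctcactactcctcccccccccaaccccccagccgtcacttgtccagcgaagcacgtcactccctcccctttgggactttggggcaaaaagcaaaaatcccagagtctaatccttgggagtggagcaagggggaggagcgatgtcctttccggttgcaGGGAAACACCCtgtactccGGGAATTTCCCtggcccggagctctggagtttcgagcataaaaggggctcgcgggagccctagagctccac
The Cxcl10 window held all 3 motifs. Its match GGGACTTCCC, which reads as the motif on both strands and overlaps another match shifted by 1 base, spans bases 103 to 94 before the start. The matches GAAAGTGAAA and TGAGTCA lie at bases 213 to 204 and 74 to 68. In the Cxcl1 window the match GGGAATTTCC, at bases 71 to 62, overlaps the reverse motif shifted by 1 base, and a like pair of overlapping matches begins at base 90. Cxcl12 had a single match to the first motif and none to the others, and Cxcl14 a single match to the interferon motif. Over all 32851 promoter windows of this length, 45.8% held the NF-kB form, 2.98% the interferon form and 6.75% TGANTCA, so the first of them is common. A match is a description of the letters and not of a factor bound there. The Cxcl12 window had 14 CpG dinucleotides and the Cxcl14 window 16, against 10 for Cxcl1, 5 for Cxcl10 and a median of 6 over all windows. Of all windows, 70.6% had fewer than Cxcl12, 74.6% fewer than Cxcl14 and 62.2% fewer than Cxcl1. The window of Cx3cl1, not printed here, had 14 CpG dinucleotides and 0 motif matches.

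Levels of different genes were compared on the deposited FPKM, which divides by transcript length. In low-passage DPCs, Ccl2 stood at 171 FPKM and Ccl7 at 128, followed by Cxcl12 at 9.63, Cx3cl1 at 6.995, Cxcl14 at 1.44 and Cxcl16 at 1.17. The remaining ligands, Cxcl1, Cxcl10, Ccl5 and Cxcl5, lay between 0.267 and 0.896. In high-passage DPCs, Ccl2 reached 451 FPKM and ranked 83 among 23164 genes with a value above 0. DSCs at passage 3 had a flatter order, with Cxcl12 at 38.5 FPKM, Ccl2 at 36.1, Ccl7 at 25.9, Cx3cl1 at 10.9 and Cxcl14 at 8.28. In high-passage DSCs, Ccl2 was at 61.2 FPKM, Cxcl12 at 57.7, Ccl7 at 30.6, Cxcl14 at 16.5 and Cx3cl1 at 14.8. The order of Cxcl12 against Ccl2 and Ccl7 in DSCs depends on the length used, because dividing by all annotated exon bases, of which Cxcl12 has 8176 and Ccl2 1138, placed Cxcl12 below both of them in each DSC library, and Ccl7 above Ccl2 in low-passage DPCs.

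**Figure D1:**
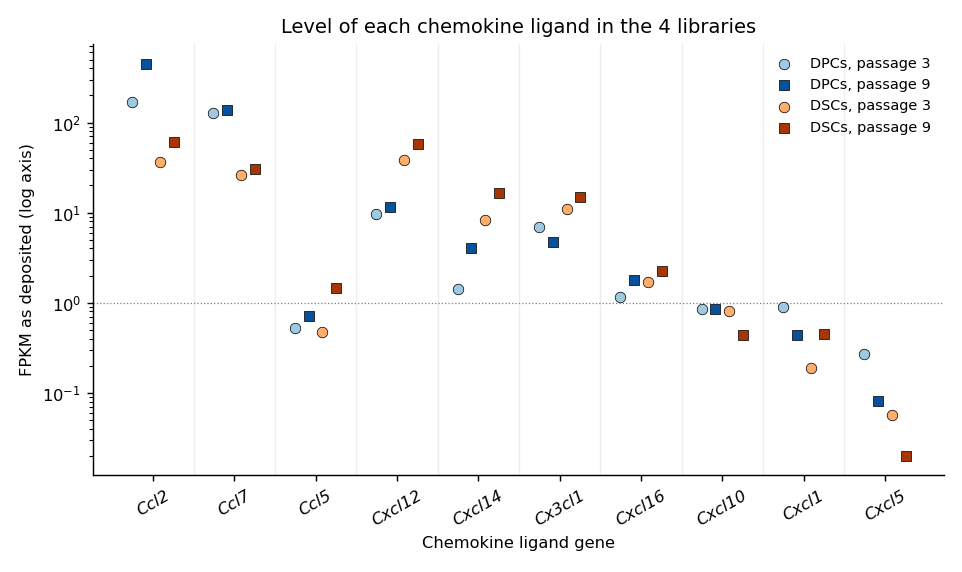
Deposited FPKM of the 10 ligands (log axis) in each of the 4 libraries; each point is 1 library and the dotted line marks 1 FPKM. Ccl2 and Ccl7 are highest in DPCs, at 128 to 451 FPKM, and Cxcl12, Cxcl14 and Cx3cl1 are highest in DSCs, while Cxcl10, Cxcl1 and Cxcl5 stay under 1 FPKM in every library.

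Summed over the 10 ligands, the level was 320 FPKM in DPCs at low passage and 613 at high passage, against 123 and 186 FPKM in DSCs. Ccl2 and Ccl7 together made up 93.2% of this sum in low-passage DPCs and 96.0% in high-passage DPCs, but 50.4% and 49.5% in DSCs. Cxcl12 made up 3.01% and 1.90% in DPCs at low and high passage, and 31.4% and 31.1% in DSCs. The Ccl2 share alone went from 53.4% to 73.5% between the DPC libraries, and from 29.4% to 33.0% between the DSC libraries. Divided by all annotated exon bases in place of the length behind the FPKM, Cxcl12 made up 18.2% of the sum at low passage and 18.3% at high passage in DSCs, and Ccl2 with Ccl7 59.4% and 57.4%, against 94.8% and 96.7% in DPCs.

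**Figure D2:**
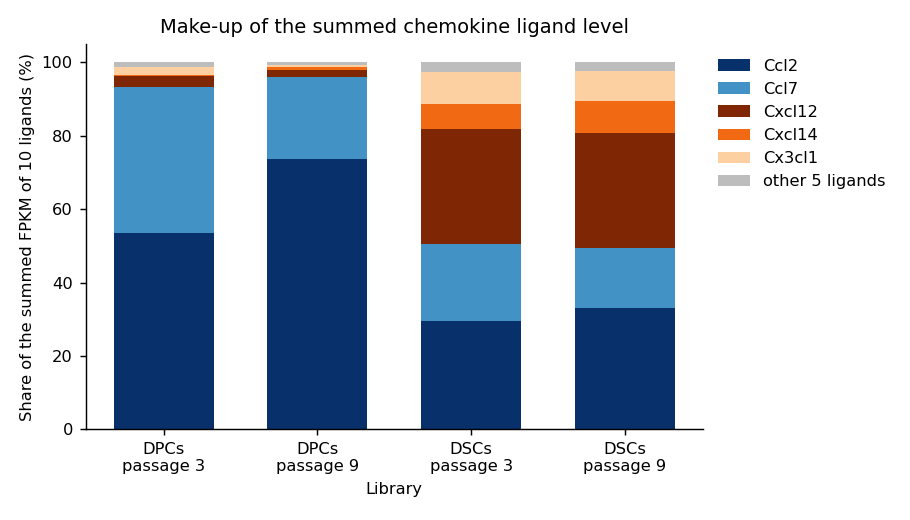
Share of each ligand in the summed FPKM of the 10 ligands, in percent, for each library (stacked bars). Blue parts, Ccl2 and Ccl7, fill 93.2% and 96.0% of the DPC bars and 50.4% and 49.5% of the DSC bars; by annotated exon bases the latter would be 59.4% and 57.4%.

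The libraries held 34981284 to 47604059 counts in total, at which 3 counts, the most that a count of 0 allows, equal 0.0658 to 0.0836 CPM. Mesenchymal markers were abundant but uneven, with a sum over 9 genes of 18827 and 7464 CPM in DPCs at low and high passage, and 27648 and 24644 CPM in DSCs. With passage 3 of them were called lower in DPCs (median log2 fold change -1.31) and 2 higher in DSCs (0.23). Between the cell types 1 was higher in DPCs at passage 3 (-0.08) and 5 lower at passage 9 (-2.54). Of all tested genes, 5.58% were called higher and 4.36% lower with passage in DPCs, and 2.67% and 1.16% in DSCs. For DPCs over DSCs the shares were 1.52% and 2.77% at passage 3, and 2.50% and 3.91% at passage 9. These shares also apply to the marker lists below. Lum had 0 counts in DPCs at passage 9 and in DSCs at passage 3. Of 6 tested papilla and sheath markers, 2 were called higher in DPCs at passage 3 (Sox2 and Lef1), and 1 higher (Sox2) and 2 lower (Lef1 and Ncam1) at passage 9, with medians of 0.00 and -0.31. Sox2, a papilla marker, had 1677 and 1491 counts in DPCs against 269 and 178 in DSCs, while Lef1 had 508 and 2 against 101 and 55. Alpl had 6 to 23 counts in a library and Lepr 0 to 18. The list also held the sheath marker Acta2 and Vcan, neither of them called between the cell types. Its 7 genes summed to 7394 and 2056 CPM in DPCs at low and high passage, and to 6187 and 4741 CPM in DSCs. A gene of the list reached 262118 counts in a library. Leukocyte and macrophage markers were present, at 157 and 89.5 CPM summed over 15 rows in low-passage and high-passage DPCs, and at 210 and 120 CPM in DSCs. Of the 13 tested, 7 fell with passage in DPCs and 1 in DSCs, where 4.36% and 1.16% of all tested genes were called lower; Cd3e was at 0 in every library. The sum of these markers was lower in DPCs than in DSCs and lower at high than at low passage. A gene of the list reached 4971 counts in a library. What part leukocytes and macrophages had in any ligand's level was not tested. Schwann markers went from 12.1 to 3.65 CPM with passage in DPCs, with 4 of 5 called lower, and from 30.5 to 5.09 CPM in DSCs, with 3 of 5. Endothelial markers went from 2.66 to 5.52 CPM in DPCs, with 1 of 4 called higher and 2 lower, and from 7.88 to 1.21 CPM in DSCs, with 3 of 4 lower. Keratinocyte and melanocyte markers summed to at most 2.07 and 1.03 CPM. The part of the mesenchymal, Schwann and endothelial values in the ligand differences was not tested. In such bulk samples, fewer cells of a type and less RNA per cell cannot be told apart.

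The first comparison asked which ligands differed between DPCs and DSCs. At passage 3, 2 of the 9 ligands were called higher in DPCs and 2 higher in DSCs. Among all tested genes, 1.52% were called higher in DPCs and 2.77% higher in DSCs. At passage 9, 2 and 2 were called again, against 2.50% and 3.91% of all genes. They were the same 4 genes at each passage; of all genes, 0.502% were called higher in DPCs at both passages and 1.00% higher in DSCs. The median log2 difference of the 9 ligands, DPCs over DSCs, was 0.01 at passage 3 and -0.40 at passage 9, and that of all tested genes 0.00 and -0.01.

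Ccl2 (ENSMUSG00000035385, chromosome 11, 82035571 to 82037453, plus strand, GRCm38) encodes the main monocyte attractant of stromal cells. It had 5675 and 14639 counts in DPCs at low and high passage, and 1295 and 2707 in DSCs. Each DPC library was above each DSC library. After scaling, DPCs exceeded DSCs 4.52-fold at passage 3 (95% counting interval 4.25 to 4.80) and 6.87-fold at passage 9 (6.59 to 7.16). These intervals, by the exact Clopper-Pearson method, are of the ratio of 2 libraries rather than of the conditions, and cover counting error only.

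Ccl7 (ENSMUSG00000035373, chromosome 11, 82045712 to 82047525, plus strand), a close relative of Ccl2 that also signals through CCR2, lies 8258 bases downstream of it with no annotated gene between them. Its counts were 4078 and 4326 in DPCs at low and high passage, and 906 and 1314 in DSCs. The DPC libraries were close to each other and above the DSC libraries. DPCs exceeded DSCs 4.64-fold at passage 3 (4.32 to 4.99) and 4.18-fold at passage 9 (3.93 to 4.45), and the latter interval reaches under 4-fold. No 50-base window of the Ccl2 or Ccl7 transcripts was found in a transcript of another gene. Ccl2 and Ccl7 were each other's nearest ligand, with a distance of 1.04 between their log2 CPM centred over the 4 libraries.

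Cxcl12 (ENSMUSG00000061353, chromosome 6, 117168535 to 117181367, plus strand) encodes the ligand that anchors CXCR4-bearing stem cells in their niches. It had 1284 and 1579 counts in DPCs at low and high passage, and 5695 and 10461 in DSCs. Each DSC library was above each DPC library. DSCs exceeded DPCs 4.30-fold at passage 3 (4.05 to 4.58) and 5.22-fold at passage 9 (4.95 to 5.50). With the deposited FPKM and a pseudocount of 0.1, the log2 difference at passage 3 was -1.99, just under the threshold.

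Cxcl14 (ENSMUSG00000021508, chromosome 13, 56288647 to 56296551, minus strand) had 105 and 291 counts in DPCs at low and high passage, and 661 and 1617 in DSCs. The groups did not overlap, and the lower DSC library had more than the higher DPC library. DSCs exceeded DPCs 6.11-fold at passage 3 (4.97 to 7.58) and 4.38-fold at passage 9 (3.86 to 4.97). The latter fell just short of 4-fold with the deposited FPKM. Cxcl12 and Cxcl14 were each other's nearest ligand at a distance of 0.88.

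Cx3cl1 (ENSMUSG00000031778, chromosome 8, 94772009 to 94782427, plus strand) encodes fractalkine, a chemokine on a membrane stalk that tethers CX3CR1-bearing leukocytes. Its counts were 894 and 616 in DPCs at low and high passage, and 1514 and 2560 in DSCs. It was higher in the DSC libraries as well, 1.64-fold at passage 3 (1.51 to 1.79) and 3.27-fold at passage 9 (3.00 to 3.58), under the threshold. Cxcl16 (ENSMUSG00000018920, chromosome 11, 70453983 to 70459984, minus strand), the other ligand with a membrane stalk, had 127 and 164 counts in the DPC libraries, and 200 and 276 in the DSC libraries, low passage given before high. Its DSC level was 1.53-fold (1.22 to 1.92) and 1.33-fold (1.09 to 1.62) that of DPCs at passage 3 and passage 9. Of its 50-base windows 16.9% are shared with Zmynd15 on the opposite strand, which had 4 to 11 counts in a library.

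**Figure D3:**
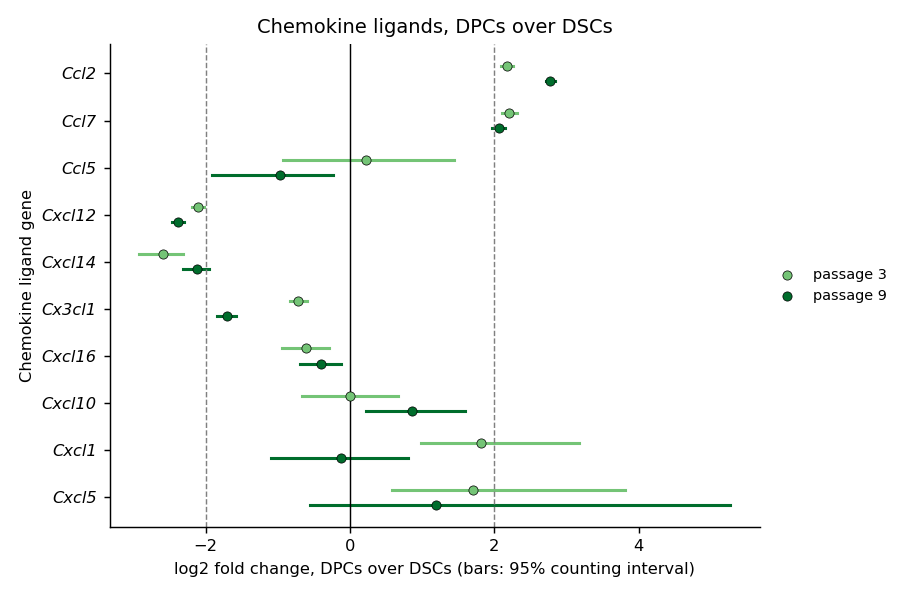
Log2 fold change of DPCs over DSCs for each ligand at passage 3 (light) and passage 9 (dark); bars are 95% counting intervals between 2 libraries and dashed lines mark 4-fold. Ccl2 and Ccl7 lie right of the upper line and Cxcl12 and Cxcl14 left of the lower line at both passages.

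Cxcl10, Ccl5, Cxcl1 and Cxcl5 were sparse in every library. Cxcl10 (ENSMUSG00000034855, chromosome 5, 92346638 to 92348889, minus strand), which interferons induce and which attracts T cells through CXCR3, had 40 and 47 counts in DPCs and 41 and 32 in DSCs, again low passage before high. Art3, which overlaps it on the opposite strand, had 0 to 6 in a library. The log2 difference between cell types was 0.01 (-0.66 to 0.67) at passage 3 and 0.85 (0.22 to 1.59) at passage 9, where the interval included 0 once counts were halved. Ccl5 (ENSMUSG00000035042, chromosome 11, 83525778 to 83530518, minus strand), a T cell attractant, had 15 and 18 counts in DPCs and 13 and 47 in DSCs, so that high-passage DSCs stood apart from the others. Its log2 difference of DPCs over DSCs was 0.22 (-0.92 to 1.44) at passage 3 and -0.97 (-1.91 to -0.23) at passage 9. The latter interval included 0 on halved counts (-2.36 to 0.086).

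The neutrophil attractants that act on CXCR2 had 39 counts or fewer in each library. Cxcl1 (ENSMUSG00000029380, chromosome 5, 90891241 to 90893115, plus strand) had 39 and 18 counts in DPCs at low and high passage, and 10 and 25 in DSCs. The ranges of the cell types overlapped. At passage 3 its scaled counts were 4.02-fold higher in DPCs (1.97 to 9.03), but with the prior count the log2 difference was 1.82 and it was not called. Cxcl5 (ENSMUSG00000029371, chromosome 5, 90759360 to 90761624, plus strand) had 20 and 6 counts in DPCs, and 5 and 2 in DSCs. At passage 3 its scaled counts were 4.12-fold higher in DPCs (1.50 to 14.1), but it was under the minimum for a call. The highest value of Cxcl5 was in low-passage DPCs, and the 2 counts in high-passage DSCs are within the 3 counts that a count of 0 allows.

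The next comparison asked which ligands differed between low and high passage, the contrast the study drew between cells early and late in culture. Of the 9 ligands, 0 were called in DPCs and 0 in DSCs in either direction. Of all tested genes 5.58% were called higher and 4.36% lower at high passage in DPCs, and 2.67% and 1.16% in DSCs. At these shares, 0 of 9 is no result about the ligands. The median log2 fold change of the ligands, passage 9 over passage 3, was 0.27 in DPCs and 0.61 in DSCs, while that of all tested genes was 0.03 and 0.00. At a 2-fold threshold 2 ligands were higher and 1 lower in DPCs (all tested genes 16.1% and 15.0%), and 2 and 0 in DSCs (8.55% and 6.21%). The same threshold between the cell types gave 3 higher and 2 lower in DPCs at passage 3 (5.43% and 7.86%), and 2 and 3 at passage 9 (9.11% and 11.0%). The passage and cell type comparisons use the same 4 libraries and are not independent of each other.

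Cxcl14 and Ccl2 had the highest log2 fold changes with passage in DPCs, at 1.49 and 1.40. Cxcl14 was 2.84-fold higher at passage 9 (2.27 to 3.59) in DPCs and 2.04-fold (1.86 to 2.23) in DSCs, and it alone of the 9 ligands passed 2-fold in both cell types, which 4.86% of all tested genes did upward; no ligand did so downward, against 3.54%. In DSCs Cxcl14 stayed just under 2-fold, at a log2 fold change of 0.99, when scaled by total counts and with the deposited FPKM. Ccl2 was 2.65-fold higher in DPCs (2.57 to 2.73) and 1.74-fold in DSCs (1.63 to 1.86). Its neighbour Ccl7 was close to level, at 1.09-fold (1.04 to 1.14) in DPCs and 1.21-fold (1.11 to 1.31) in DSCs. The ratio of Ccl2 to Ccl7 FPKM within a library, which needs no scaling between libraries, was 1.34 in low-passage and 3.27 in high-passage DPCs, and 1.39 and just under 2 in DSCs.

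Cxcl12 was 1.26-fold higher at passage 9 in DPCs (1.17 to 1.36) and 1.53-fold in DSCs (1.48 to 1.58). Ccl5 was 3.01-fold higher in DSCs (1.60 to 6.06) and 1.23-fold in DPCs (0.586 to 2.62), on the small counts given above. Cxcl16 was 1.32-fold (1.04 to 1.68) and 1.15-fold (0.954 to 1.38) in DPCs and DSCs. All 3 had point values above 1 in both cell types, and the intervals of Ccl5 in DPCs and Cxcl16 in DSCs included 1. On halved counts the interval of Cxcl16 in DPCs also included no change (log2 -0.095 to 0.889).

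Cx3cl1, Cxcl1 and Cxcl10 had passage differences of opposite sign in the cell types, none of them called. Cx3cl1 was 1.42-fold lower at passage 9 in DPCs (1.28 to 1.57) and 1.41-fold higher in DSCs (1.32 to 1.50). Cxcl1 was 2.11-fold lower in DPCs (1.18 to 3.92, an interval that included no change on halved counts) and 2.08-fold higher in DSCs (0.965 to 4.85). For Cxcl10 the log2 fold changes were 0.26 (-0.37 to 0.91) and -0.59 (-1.34 to 0.08), both intervals including 0. Cxcl5 was lower at passage 9 in both cell types, 3.25-fold (1.26 to 9.89) in DPCs and 3.00-fold (0.492 to 31.6) in DSCs, on at most 20 counts.

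**Figure D4:**
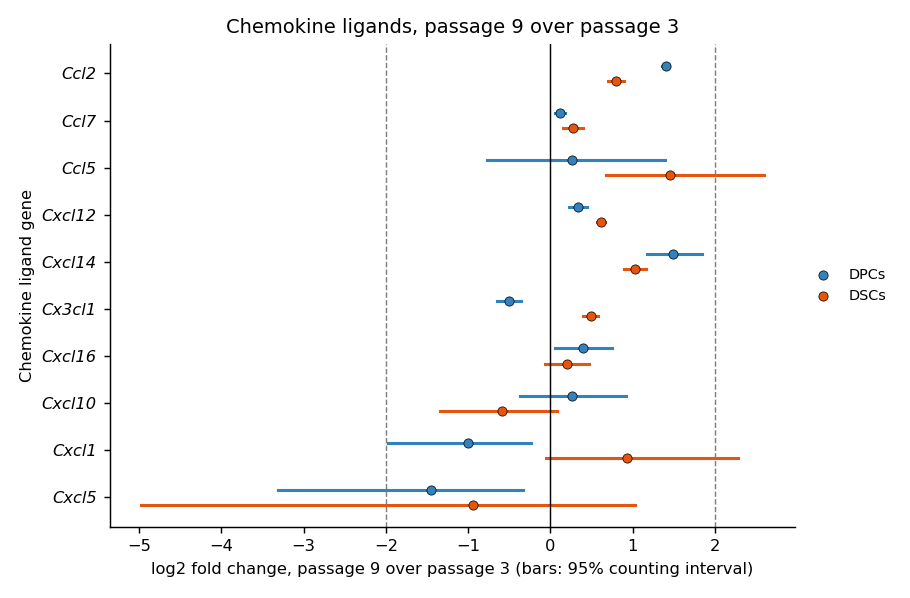
Log2 fold change of passage 9 over passage 3 for each ligand in DPCs (blue) and DSCs (orange); bars are 95% counting intervals between 2 libraries and dashed lines mark 4-fold. No point reaches a dashed line, and the points of Cx3cl1, Cxcl1 and Cxcl10 lie on opposite sides of 0.

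The wider chemokine system was read with lists that are not part of the 10 genes. Of 29 other ligands, 16 had a count in any library and 8 could be tested. Ccl9, a ligand made by macrophages, fell from 2562 to 91 counts in DPCs, 27.5-fold (22.3 to 34.2), and went from 1506 to 453 in DSCs, a log2 fold change of -1.99 just short of a call. Ccl8, a monocyte attractant of the Ccl2 family, rose 5.67-fold (3.77 to 8.84) in DSCs, from 27 to 184 counts, and went from 64 to 193 in DPCs. Those were the calls with passage among the 8, 1 in each cell type, and the medians of the list were 0.40 in DPCs and -0.43 in DSCs. Of all tested genes, 4.36% were called lower in DPCs and 2.67% higher in DSCs. Between the cell types 0 were called at passage 3, against 1.52% of all tested genes higher and 2.77% lower in DPCs. At passage 9, Ccl3 and Ccl28 were called higher in DPCs, with 38 and 100 counts against 7 and 18 in DSCs. Of all tested genes 2.50% were called higher there. Cxcl13, the ligand on which the study centred, was reported there in hair follicles of mouse skin after depilation. In the cultured cells it had 2 counts in high-passage DPCs and 0 elsewhere, which allows up to 0.0815 CPM in low-passage DPCs.

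Receptors for the 10 ligands were scarce in the same cells. Of 13 listed receptors 5 could be tested. Ackr3, which takes up CXCL12 without G protein signalling, rose 6.39-fold (5.17 to 7.97) with passage in DPCs, from 100 to 623 counts, and was 2.85-fold higher (2.34 to 3.49) in DSCs, from 130 to 445. Cxcr4, the signalling receptor of CXCL12, had 51 and 32 counts in DPCs and 37 and 16 in DSCs, and was not called in any comparison. Cx3cr1, a receptor of macrophages, fell from 110 counts to 0 in DPCs, at least 35.8-fold lower against a floor of 3 counts (lower limit of the exact interval 28.6), and from 132 to 19 in DSCs, 8.35-fold (5.14 to 14.3). The summed leukocyte and macrophage markers were also lower at high passage, at 89.5 against 157 CPM in DPCs and 120 against 210 in DSCs, and their part in the values of Ccl9 and Cx3cr1 was not tested. Ccr2, the receptor of CCL2 and CCL7, had 2 counts in low-passage DPCs and 0 in the other libraries, and Cxcr1 and Cxcr2 had 0 in all 4. Ccr1, a receptor of CCL5 and CCL7, was called on few counts, 13 in DPCs against 0 in DSCs at passage 3, and 9 in DSCs at passage 9. Cxcr6, the receptor of CXCL16, was called higher in DPCs at passage 9, on 41 against 11 counts. In all, 1 receptor was called higher and 1 lower with passage in each cell type, 1 and 0 between cell types at passage 3, and 1 and 1 at passage 9. Of all tested genes, 5.58% were called higher and 4.36% lower with passage in DPCs, and 2.67% and 1.16% in DSCs. For DPCs over DSCs the shares were 1.52% and 2.77% at passage 3, and 2.50% and 3.91% at passage 9.

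Lists of genes known to share inducers with some of these ligands were read beside them. Of 13 tested interferon-stimulated genes, 13 had a negative log2 difference of DPCs over DSCs at passage 3 and 12 at passage 9, with medians of -1.62 and -1.10; 4 and 1 were called lower, against 2.77% and 3.91% of all tested genes. Ifi44 had 145 and 962 counts in DPCs and 1005 and 4431 in DSCs, and Ifit1 had 268 and 1461 against 1137 and 3976. Both were 4-fold or more above DPCs in low-passage DSCs, where the log2 difference of Cxcl10 was 0.01. With passage, 3 of 13 rose in DPCs (Ifit1 5.59-fold, Ifi44 6.80-fold and Mx1 at least 9.57-fold, with 7.28 as the lower limit of its exact interval), against 5.58% of all tested genes. In DSCs 0 were called, against 2.67%, with Ifi44 at 3.67-fold (3.43 to 3.93) and Ifit1 at 2.91-fold (2.72 to 3.11). In each cell type 11 of the 13 had a positive log2 fold change, with medians of 1.07 and 0.75.

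Of 13 tested genes regulated by NF-kB, 3 rose and 2 fell with passage in DPCs, and 0 were called in DSCs, with medians of 0.20 and 0.22. All tested genes were called at 5.58% higher and 4.36% lower in DPCs, and at 2.67% and 1.16% in DSCs, shares at which 0 of 13 is no result about the list. Lif, a stem cell cytokine, rose 7.89-fold (6.26 to 10.1), Icam1, an adhesion molecule for leukocytes, 12.1-fold (7.35 to 21.1) and Ptgs2, the inducible prostaglandin synthase, 6.26-fold (6.05 to 6.48). Vcam1, another adhesion molecule, fell 6.62-fold (5.89 to 7.46), and Il6, an inflammatory cytokine, fell from 51 counts to 0, at least 16.6-fold lower (lower limit of the exact interval 13.0). Between the cell types 0 were higher and 1 lower in DPCs at passage 3 (Icam1), and 0 and 2 at passage 9 (Vcam1 and Il6), with medians of -0.01 and 0.06. Nfkbia, the feedback inhibitor of NF-kB, was not called in any comparison, with log2 values of 0.39 and 0.27 with passage in DPCs and DSCs.

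**Figure D5:**
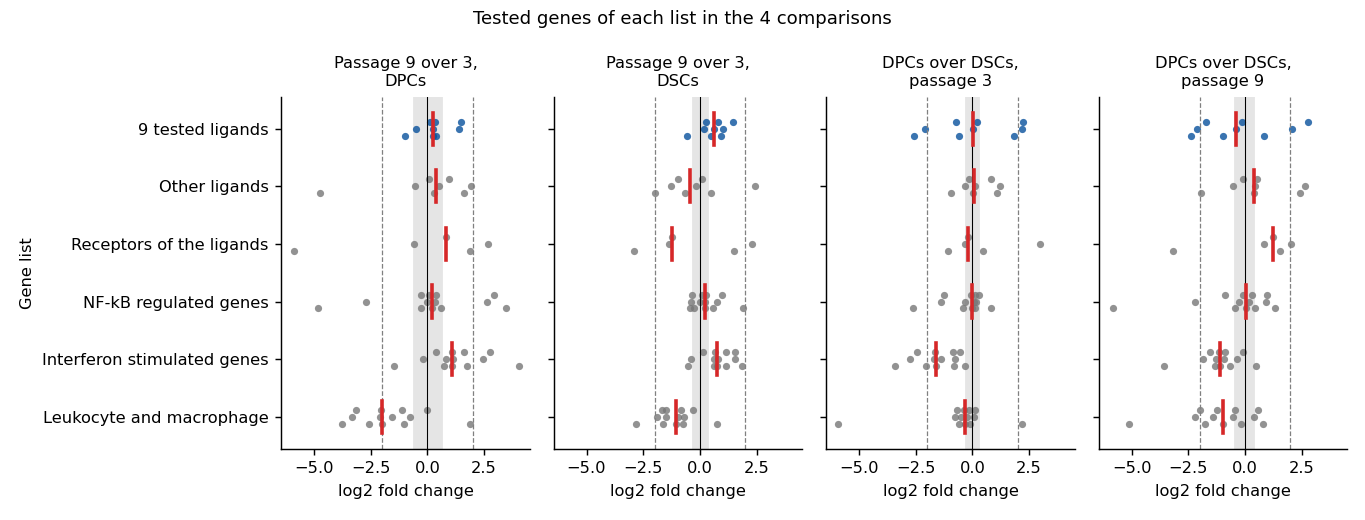
Log2 fold change of each tested gene in the 9 tested ligands and in 5 further lists, for the 4 comparisons; red bars are list medians, the grey band holds the middle 50% of all tested genes and dashed lines mark 4-fold. In DPCs over DSCs, 13 of 13 interferon-stimulated genes lie left of 0 at passage 3 and 12 at passage 9, with medians of -1.62 and -1.10. The leukocyte and macrophage genes lie mostly left of 0 with passage, with medians of -2.02 in DPCs and -1.04 in DSCs.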

How the data were processed

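RNA was sequenced in 1 library for each of 4 groups, DPCs and DSCs at passage 3 and passage 9, grouped by sample title. The labels and the study's methods name different library kits. The submitters' processing notes list Bowtie 0.12.2 and the builds mm8 and mm9, but the positions in the tables are of GRCm38: of 51826 IDs, 51633 were in GENCODE M21, 94.1% of them at the identical place. The counting program and its use of strand are not given in the sources used here. The deposited counts are whole numbers per gene that the authors did not normalize. The deposited FPKM values were made by the authors and divide by library depth and by the length of the transcript.

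Scaling factors came from edgeR 4.0.16 in R 4.3.3 (limma 3.58.1), by TMM over genes with a mean count of at least 10. Log2 fold changes used a prior count of 2 and calls a 4-fold threshold. With 1 library per group no significance test was run. Exact intervals came from SciPy 1.17.1. Folds in the text are ratios of scaled counts without the prior count; a fold against 0 counts was computed against 3 counts and is a lower bound. Even counts were in excess (1339 genes had a count of 2 and 583 a count of 3 in DPCs at passage 3), so intervals were also computed on halved counts, as for counting both mates of a read pair. The script was checked on simulated counts with known fold changes.

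The 10 ligands and all lists were chosen with earlier results of these data known. The lists were other ligands, receptors of the ligands, NF-kB regulated genes, interferon-stimulated genes, ligand processing, and markers of mesenchyme, papilla and sheath, leukocytes, keratinocytes, endothelium, Schwann cells and melanocytes. All 10 ligands are named. From the lists, genes past 4-fold with passage in the same direction in both cell types are named, then those in 1 cell type by size, at most 5 per list, and receptors with at least 10 counts in a library. Other names and the counts of CpG were chosen after values were seen. Itgam has 2 rows, so the leukocyte list has 15. Alternatives were other scalings (total counts, DESeq2 1.42.0 size factors, upper quartile), prior counts of 0.5 and 10, no minimum count, a minimum of 100, the FPKM with a pseudocount of 0.1, and a 2-fold threshold. Of the 10 ligands, 5 had a RefSeq promoter window; Cxcl5, Cxcl16, Ccl2, Ccl5 and Ccl7 had no entry.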

Additional observations from a re-analysis of the deposited data

Results flagged for a closer look

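Of the 10 ligands, 3 had passage changes of opposite sign in DPCs and DSCs, which brought them here; with 1 library per group the differences were not tested. For Cx3cl1 the log2 fold change in DPCs minus that in DSCs was -0.99, from -0.50 and 0.49, and both counting intervals excluded 0, also on halved counts. For Cxcl1 the difference was -1.94, from -1.01 and 0.93, on 10 to 39 counts in a library, and the interval in DSCs included 0, as did that in DPCs on halved counts (-2.43 to 0.08). For Cxcl10 it was 0.85, from 0.26 and -0.59, on 32 to 47 counts, and both intervals included 0.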

How the results depend on the processing

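Calls of ligands between DPCs and DSCs were the same genes under every other scaling, prior count and minimum count run. With the deposited FPKM, the number called higher in DSCs was 1 in place of 2 at passage 3, where Cxcl12 had a log2 difference of -1.99, and 1 in place of 2 at passage 9, where Cxcl14 was just under the threshold. A 2-fold threshold called 2 ligands higher (Cxcl14 and Ccl2) and 1 lower (Cxcl1) with passage in DPCs, and 2 higher (Cxcl14 and Ccl5) in DSCs, against 0 each at 4-fold. The 2-fold call of Cxcl1 was lost with a prior count of 10 (-0.80) and with the FPKM (-0.88), and that of Cxcl14 in DSCs with total counts and with the FPKM (0.99 each), while with a prior count of 0.5 Cxcl1 passed 2-fold in DSCs (1.02). The cell type counts at 2-fold were 3 higher and 2 lower in DPCs at passage 3, and 2 and 3 at passage 9. The only sign that changed among single ligands was that of Cxcl10 with passage in DPCs, which was -0.01 at its lowest, with the FPKM. Total counts moved 5 of 40 ligand values out of their counting interval and the FPKM 4 of 40. Of 40 ligand intervals 30 excluded 0, and 25 on halved counts. By CPM per kilobase of annotated exon, 1 or 2 of the 45 pairs of ligands in a library changed order, and the share of Cxcl12 in the sum, tried after seeing the data, was 1.02% to 18.3% in place of 1.90% to 31.4%. The within-library ratio of Ccl2 to Cxcl12, chosen after seeing the data, was higher in DPCs by 4.24 (passage 3) and 5.19 (passage 9) on the log2 scale with FPKM, and by 4.28 and 5.16 with counts. No paired analysis was possible because the samples carry no shared replicate numbers and each group had 1 library; an additive fit of cell type and passage over the 4 libraries was not run. Cxcl1, Cxcl5, Cxcl10 and Ccl5 rest on at most 47 counts in a library and had the widest intervals.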

Other observations

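Of 9 tested genes whose products cut, trim or anchor chemokines, 0 rose and 1 fell with passage in DPCs, where 5.58% and 4.36% of all tested genes did, and 0 were called in DSCs, against 2.67% and 1.16%, with median log2 fold changes of 0.25 and -0.03. The gene that fell was Mmp9, a gelatinase that trims several ligands, from 114 to 4 counts (27.8-fold, 10.6 to 104); it was also called higher in DPCs than DSCs at passage 3, with 114 against 19 counts, the 1 call of the list there, and none was called at passage 9 (medians 0.00 and -0.18). Adam10 and Adam17, the proteases that release CX3CL1 and CXCL16 from the membrane, had 7163 to 9791 and 1503 to 2799 counts in a library and were not called in any comparison. Dpp4, which removes the N terminus of CXCL12 and CXCL10, had 0 to 4 counts.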
